A study of Mus musculus with 17 samples.

Results

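The microRNAs (miRNAs) mmu-miR-10a-5p, mmu-miR-10b-5p and mmu-miR-196b-5p, encoded in the Hox gene clusters, were followed in mouse serum and are named below without the species prefix. They were chosen by name, as the 3 mature 5p strands of the miR-10 and miR-196 families with a mouse assay on the panel, out of 357 miRNA assays. The choice was made with earlier results of these data known. Serum came from 17 mice: 7 transgenic AT-ATX mice with spontaneous tumors, 7 transgenic AT-ATX mice without tumors and 3 wild-type FVB/N mice described as healthy. The transgene of AT-ATX mice is Autotaxin, an enzyme released from cells that produces lysophosphatidic acid, a lipid signal. The promoter of the transgene, the strain background of the transgenic mice, their ages and the kinds of tumor are not given in the sources used here, and 1 tumor label, that of replicate 5, has a question mark. Blood was drawn at necropsy, RNA was extracted from 50 µL of serum, and SYBR Green real-time PCR was run for 40 cycles. The values are quantification cycles (Ct): the more template a serum holds, the lower its Ct, by about 1 cycle per doubling.

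MicroRNAs are short RNAs that pair with messenger RNAs mainly through their seed, bases 2 to 8 from the 5′ end, and lower the output of those messengers. The Hox clusters encode transcription factors that set position along the body axis, and the miRNA genes lying among them are expressed in overlapping domains and target Hox messengers. miR-10b is also known for its role in the invasion of breast cancer cells, and miR-196b for its expression with Hoxa9 in blood progenitors and in leukemia.

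The mature sequences show why the miRNAs form 2 families. They are given 5′ to 3′ from RefSeq (GRCm38.p6), with the seed in capitals.
miR-10a-5p: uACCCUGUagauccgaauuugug
miR-10b-5p: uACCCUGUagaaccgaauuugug
miR-196b-5p: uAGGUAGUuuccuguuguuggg
miR-100-5p: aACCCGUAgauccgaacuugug
miR-10a-5p and miR-10b-5p share 1 seed and differ at 1 of 23 bases, U12A (base of miR-10a-5p, position from the 5′ end, base of miR-10b-5p). How far each assay also reads the other was not tested. miR-196b-5p has another seed. miR-100-5p, shown as the nearest relative by sequence, has yet another, which it shares with miR-99a-5p and miR-99b-5p.

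Each of the 3 genes lies in a different Hox cluster. Mir10a lies on chromosome 11 (bases 96317165 to 96317274), inside the annotated span of Hoxb3 and 993 bases from Hoxb4. Mir10b lies on chromosome 2 (74726070 to 74726137), inside the annotated spans of Hoxd3 and Hoxd4. Mir196b lies on chromosome 6 (52230081 to 52230165, minus strand), between Hoxa9 and Hoxa10, 2711 and 1032 bases away. Its hairpin is shown because both arms were measured, with the 5p arm and then the 3p arm in capitals.
Mir196b hairpin: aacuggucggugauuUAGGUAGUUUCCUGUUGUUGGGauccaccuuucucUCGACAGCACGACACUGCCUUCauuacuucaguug

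Between 312 and 356 miRNA assays were detected per mouse, and 252 were detected in every mouse. The mean Ct of these shared assays ran from 27.0 to 31.7 over the mice, and that of the 5 spike-ins from 25.1 to 26.1. Levels, in log2 units, were obtained by subtracting the Ct of a miRNA from the mean over the shared assays in that mouse. A level therefore compares a miRNA with the rest of the panel and does not give an amount per volume of serum. Less RNA released per cell and fewer cells releasing it cannot be told apart in serum. All red blood cell, platelet, myeloid and liver markers on the panel were detected in every mouse. Since most assays were, this does not test whether the samples were serum.

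miR-10b-5p was the most abundant of the 3. It was detected in all 17 mice, at a median Ct of 30.6 (range 27.0 to 32.1), and stood at place 151 of 338 tested assays when ordered from low to high mean Ct. miR-10a-5p was also detected in all 17 mice, at a median Ct of 33.8 (28.9 to 36.5) and place 274. miR-196b-5p was detected in 16 mice, at a median Ct of 33.9 (29.5 to 35.9) and place 277, and was not detected in tumor replicate 2. This order assumes that the assays amplify alike. The highest Ct in the whole table was 36.998. At or above Ct 35 lay 5 values of miR-10a-5p, 4 of miR-196b-5p and 0 of miR-10b-5p, and late cycles are read from few template molecules.

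miR-196b-5p was lower in the serum of transgenic than of wild-type mice in limma, a call that did not hold in every setting. By exact permutation the adjusted p was 0.0828 for tumor-free and 0.217 for tumor mice. The unadjusted exact permutation p, 0.00833 and 0.0119, was in both the smallest that these numbers of mice allow. Whether such a p passes over 338 assays depends on how many other assays have p-values as small. This test therefore cannot decide the call for miR-196b-5p alone. Its mean level stood at -5.19 ± 0.64 (SD, n = 7) in tumor-free AT-ATX mice and at -2.74 ± 1.17 (n = 3) in wild-type mice. The tumor-free mice ran from -6.61 through a median of -5.0 to -4.79, against -3.59, -1.40 and -3.22 in the wild-type mice. All 7 tumor-free mice thus lay below all wild-type mice. The log2 difference was -2.46 (SE 0.54, 95% interval -3.58 to -1.33), a level 5.49-fold lower (limma, adjusted p = 0.0357 over 338 assays).

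The tumor-bearing mice lay below wild type as well. miR-196b-5p stood at -4.56 ± 0.61 (SD, n = 6) in tumor AT-ATX mice, with -5.27 as the lowest, -4.55 as the median and -3.83 as the highest level, and all 6 lay below all wild-type mice. The log2 difference from wild type was -1.82 (SE 0.55, 95% interval -2.97 to -0.67), 3.53-fold lower (limma, adjusted p = 0.0463). Both comparisons use the same 3 wild-type mice. Of the members, 1 of 3 passed in each, beside 0.592% of all tested assays (0.296% lower) between tumor-free and wild-type mice and 8.28% (4.14% lower) between tumor and wild-type mice. Groups that did not overlap, with wild type on top, were found for 5.92% and 3.85% of tested assays in the same order.

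**Figure D1:**
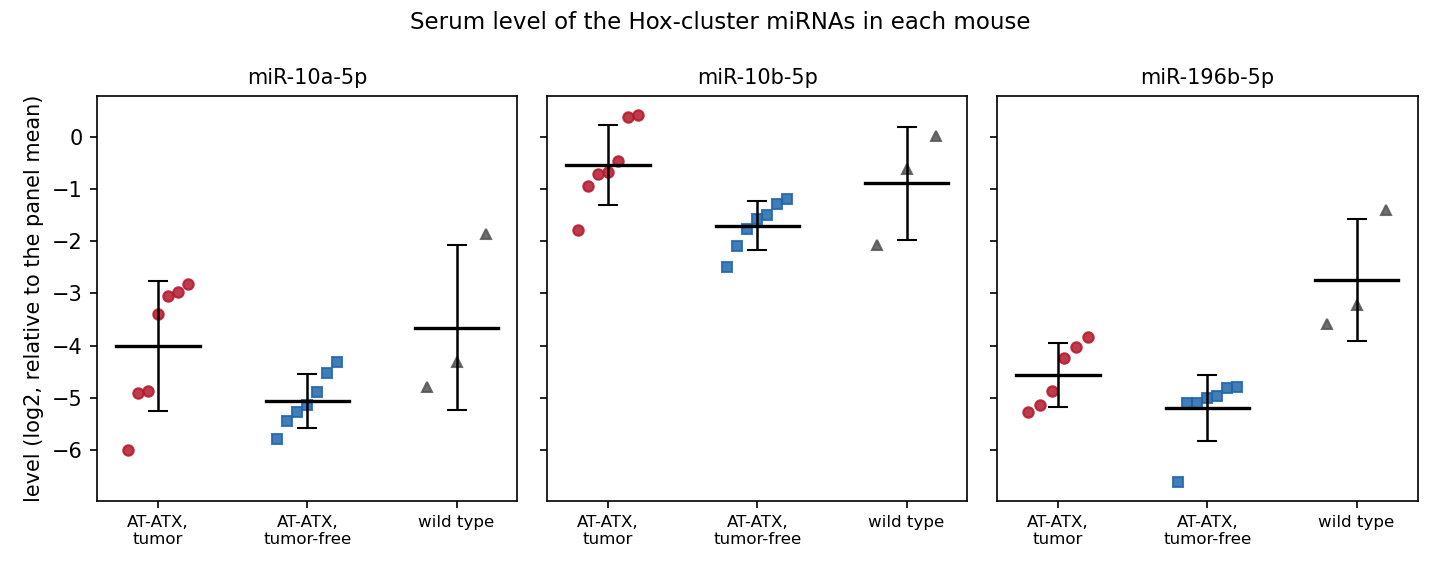
Level of each miRNA (log2, relative to the panel mean) in each mouse, as points, by group on the x axis, with the group mean as a line and 1 SD as a bar. For miR-196b-5p the 13 measured AT-ATX mice lie between -6.61 and -3.83, all below the wild-type mice, while the groups overlap for miR-10a-5p and miR-10b-5p.

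These calls rest on 3 wild-type mice, and wild-type replicate 2 weighs most. Without it the log2 difference was -1.79 (adjusted p = 0.331) for tumor-free mice and -1.15 (adjusted p = 0.306) for tumor mice. The direction was the same in each of the 12 alternative settings that gave a value and each of the 17 fits that left out a mouse. Among the 12, exact permutation lost both calls although its unadjusted p was the smallest it can give. The tumor-free call held in 5 of the 12 settings and in 10 of the 17 fits without a mouse. It was also lost without wild-type replicate 3 (adjusted p = 0.0822) and without tumor-free replicate 2, 3, 5, 6 or 7 (0.0515 to 0.0690). The tumor call held in 6 of the 12 settings and in 5 of the 17 fits, those without wild-type replicate 1, tumor-free replicate 4, or tumor replicate 1, 3 or 4. In the other 12 fits its adjusted p ran from 0.0550 to 0.306. In raw Ct, which uses no scaling, the values were 34.6 ± 0.98 (SD, n = 7) in tumor-free mice, 34.2 ± 0.86 (n = 6) in tumor mice and 31.1 ± 1.88 (n = 3) in wild-type mice. The weakest wild-type serum, at Ct 33.19, lay next to the strongest transgenic one, at Ct 33.22. The differences in raw Ct terms were -3.48 for tumor-free and -3.14 for tumor mice, where the medians over all tested assays were -1.07 and -1.22.

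**Figure D2:**
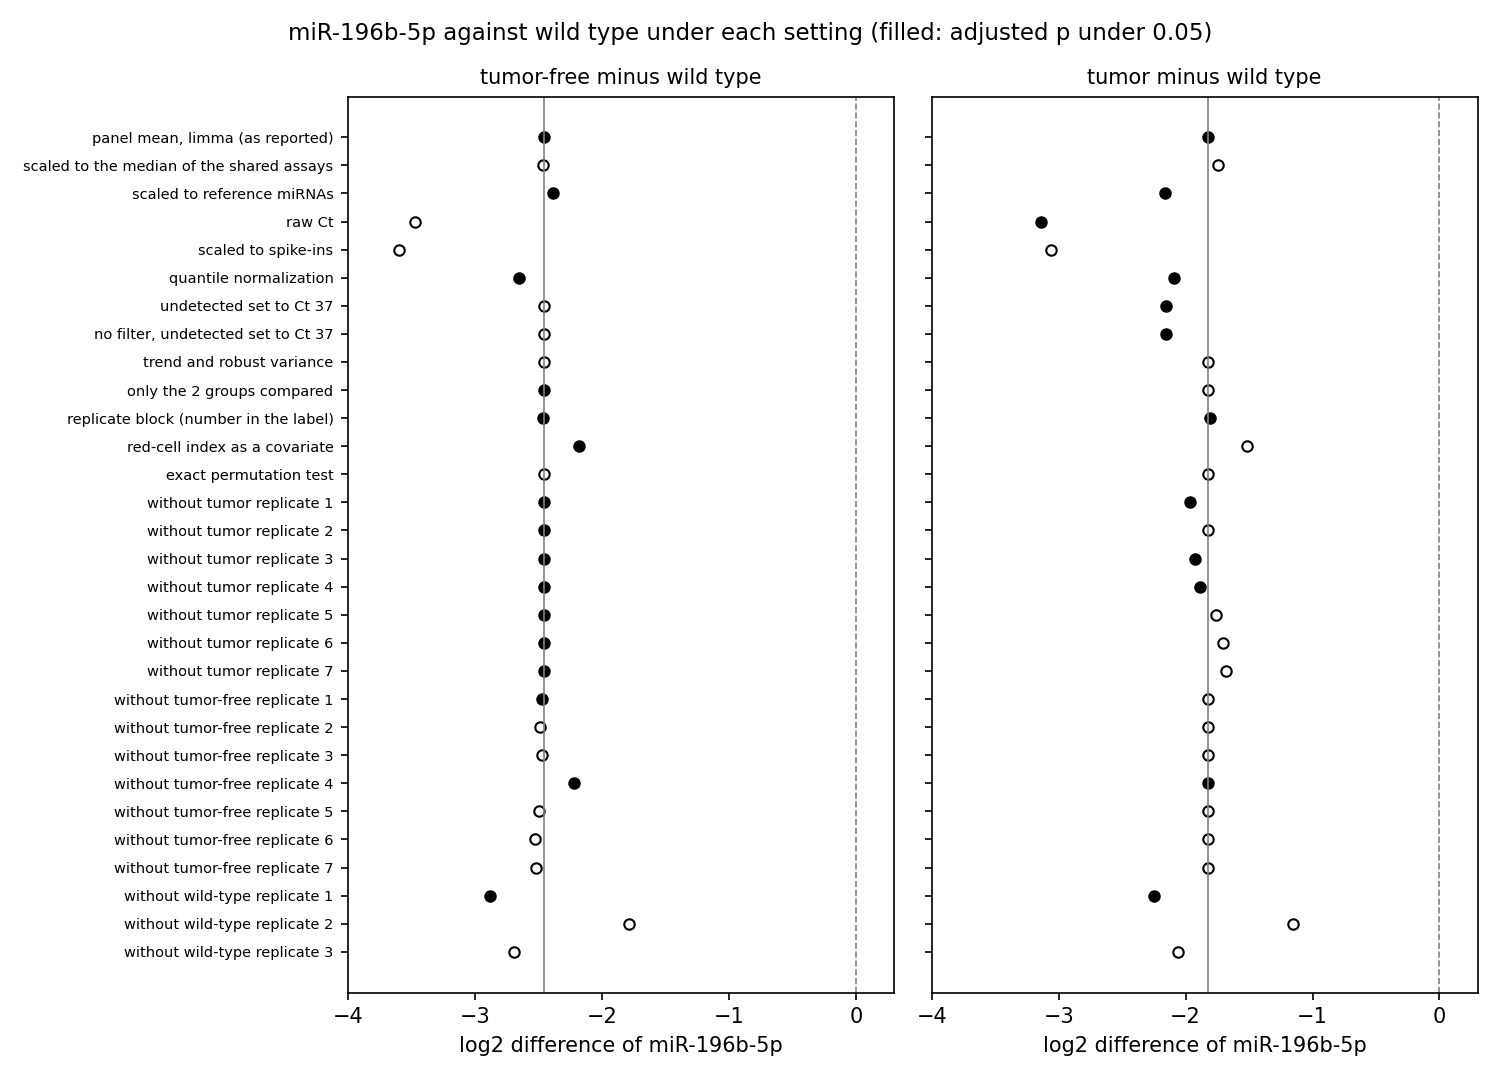
Log2 difference of miR-196b-5p (x axis) between tumor-free and wild-type mice (left) and tumor and wild-type mice (right) under each setting and without each mouse in turn (y axis); filled points have an adjusted p under 0.05, and the grey line is the reported value. Every point lies below 0, from -3.60 to -1.79 on the left and from -3.14 to -1.15 on the right.

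The 3p arm of the same hairpin was measured by an assay of its own, at the edge of detection. miR-196b-3p was detected in 5 of 7 tumor mice, 6 of 7 tumor-free mice and 2 of 3 wild-type mice, at Ct 33.6 to 36.4. Its level did not pass in any comparison. It differed by 1.53 (SE 0.83, limma adjusted p = 0.272) between tumor-free and wild-type mice and by 1.58 (SE 0.85, adjusted p = 0.258) between tumor and wild-type mice, while the 5p arm differed by -2.46 and -1.82. The sign for the 3p arm depended on the scaling. In raw Ct this arm averaged 35.37 in tumor (n = 5), 35.19 in tumor-free (n = 6) and 34.87 in wild-type mice (n = 2), slightly later in transgenic mice. The ratio of the arms within a serum, a measure chosen after the values were seen, does not depend on scaling. In log2 units the 5p arm exceeded the 3p arm by 0.06, 0.87, 0.99 and 2.53 in the 4 tumor mice with both arms detected. In the 6 tumor-free mice the ratio ran from -0.37 through a median of 0.44 to 2.11, and in the 2 wild-type mice it was 4.64 and 4.96. The 10 transgenic mice with both arms lay below both wild-type mice.

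The arm ratio differed by -4.29 between tumor-free and wild-type mice (exact permutation p = 0.0357, adjusted p = 0.1 over 3 tests). Between tumor and wild-type mice it differed by -3.69 (exact permutation p = 0.0667, adjusted p = 0.1). Both p-values are the smallest that these numbers of mice allow. In 5 mice 1 arm was not detected. With that arm set to Ct 37 the ratio would be at least 3.20 and 2.51 in tumor replicates 3 and 4, at least 2.96 in tumor-free replicate 7 and at least 3.81 in wild-type replicate 3. In tumor replicate 2, where the 5p arm was missing, it would be at most -1.81. By these bounds tumor replicate 2 lies below both measured wild-type ratios, and wild-type replicate 3 lies above the 10 measured transgenic ratios. By the same rule tumor replicate 3 and tumor-free replicate 7 also lie above those 10 ratios, the highest of which was 2.53. These bounds thus do not set wild type apart from all transgenic mice. Tumor replicate 4 can be placed on neither side of the highest of the 10. Whether tumor replicates 3 and 4 and tumor-free replicate 7 reach the wild-type ratios cannot be told, since they have only a lower bound. The Ct values of miR-196b-3p carried the last decimals of those of miR-10a-5p in 3 of 13 mice, whereas miR-10b-5p did so in 17 of 17 and miR-196b-5p in 16 of 16. Where that marks 2 plates, an offset between plates would enter the arm ratio but not the ratios among the 3 members. Its part in the result was not tested.

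The miR-10 pair was then compared between tumor-bearing and tumor-free mice, all of them labeled transgenic AT-ATX. Their ages and strain background are not given, so the tumors need not be all that differs between these groups. miR-10b-5p stood at -0.54 ± 0.77 (SD, n = 7) in tumor mice and at -1.70 ± 0.46 (n = 7) in tumor-free mice. The tumor mice ran from -1.78 through a median of -0.67 to 0.42, against -2.49, -1.57 and -1.20 as the lowest, median and highest tumor-free levels. Thus 6 of 7 tumor mice lay above all tumor-free mice, and tumor replicate 4 lay among them. The log2 difference was 1.16 (SE 0.41, 95% interval 0.31 to 2.01, 2.24-fold). It did not pass over 338 assays (limma p = 0.00987, adjusted p = 0.135; exact permutation p = 0.00524, adjusted p = 0.111). These values are for levels relative to the panel mean. The difference was 0.84 when scaled to reference miRNAs, 0.80 in raw Ct and 1.03 with spike-ins. In the same order the medians over all tested assays were -0.18, -0.24 and -0.0037. On none of these scales did limma give an unadjusted p under 0.05. It did so with median scaling (1.28) and quantile scaling (1.13).

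miR-10a-5p, which shares the seed, differed in the same direction with a wider spread. It averaged -4.0 ± 1.24 (SD, n = 7) in tumor mice and -5.05 ± 0.52 (n = 7) in tumor-free mice. The tumor mice ran from -5.99 through -3.39 to -2.82, against -5.80, -5.14 and -4.31 in tumor-free mice, and 4 of 7 tumor mice lay above all tumor-free mice. The log2 difference was 1.05 (SE 0.54, 95% interval -0.07 to 2.18, adjusted p = 0.328). miR-196b-5p differed by 0.64 (SE 0.43, 95% interval -0.27 to 1.54, adjusted p = 0.475), with 3 of 6 tumor mice above all tumor-free mice. All 3 members thus had differences above 0, with a median of 1.05, where the median over all tested assays was 0.14. None of the 3 passed in limma or by exact permutation. On levels relative to the panel mean 1 of 3, miR-10b-5p, had an unadjusted p under 0.05 in each. Of all tested assays 1.48% passed in this comparison, and 7.99% were higher at an unadjusted p under 0.05.

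**Figure D3:**
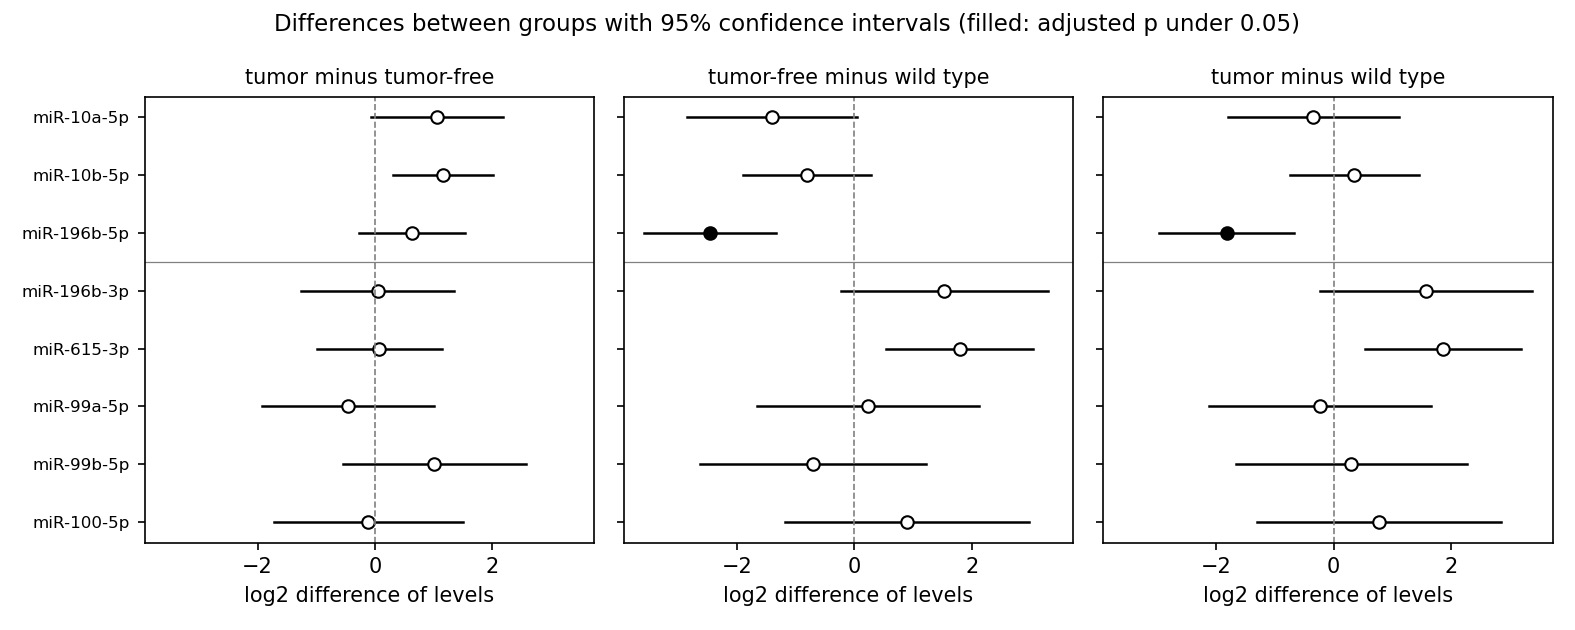
Log2 difference of levels (x axis) with its 95% confidence interval for the 3 miRNAs (above the line) and for other Hox-cluster miRNAs and relatives of miR-10 on the panel (below it), in the 3 comparisons; filled points passed at an adjusted p of 0.05. Only miR-196b-5p against wild type is filled, at -2.46 and -1.82, and the intervals of its 3p arm and of miR-615-3p are centred above 0 there.

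Against wild type, neither miR-10 passed. miR-10a-5p in the wild-type mice was at -1.86, -4.31 and -4.79, and miR-10b-5p at 0.02, -2.08 and -0.63. Wild-type replicate 1 was the highest of the 3 for both miRNAs, and all groups overlapped. Between tumor-free and wild-type mice miR-10a-5p differed by -1.40 (SE 0.70, 95% interval -2.86 to 0.05, adjusted p = 0.225) and miR-10b-5p by -0.81 (SE 0.52, 95% interval -1.90 to 0.29, adjusted p = 0.379). Without wild-type replicate 1 these differences were -0.51 and -0.35. For miR-10a-5p the difference was -1.97 without replicate 3, -2.42 with raw Ct, -2.55 with spike-ins and -1.90 with the red-cell index described below as a covariate. For miR-10b-5p it was -1.40 without replicate 2, -1.83 with raw Ct, -1.95 with spike-ins and -1.19 with the covariate. Neither passed in any of these fits (smallest limma adjusted p = 0.126, miR-10a-5p with the covariate). The medians over all tested assays in this comparison were -1.07 with raw Ct and -1.19 with spike-ins. Between tumor and wild-type mice miR-10a-5p differed by -0.35 (95% interval -1.80 to 1.11, adjusted p = 0.807) and miR-10b-5p by 0.35 (-0.74 to 1.45, adjusted p = 0.715). The difference of miR-10a-5p turned to 0.55 without wild-type replicate 1, and that of miR-10b-5p turned to -1.03 with raw Ct and -0.92 with spike-ins. On these 2 scales the medians over all tested assays were -1.22 and -1.08, so miR-10b-5p lay slightly above the median assay. In order of mean level, miR-10a-5p ran from wild-type over tumor to tumor-free mice, and miR-10b-5p from tumor over wild-type to tumor-free mice, with no neighbours in either order passing the test.

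The members were next set against each other within each serum, where scaling cancels. miR-10b-5p exceeded miR-10a-5p in all 17 mice, by 3.46 ± 0.97 (log2 units, SD, n = 7) in tumor mice, 3.35 ± 0.76 (n = 7) in tumor-free mice and 2.76 ± 1.23 (n = 3) in wild-type mice. The ratio differed by 0.11 between tumor and tumor-free mice (exact permutation p = 0.816). miR-196b-5p relative to miR-10b-5p stood at -3.86 ± 1.11 (n = 6) in tumor mice, -3.49 ± 0.45 (n = 7) in tumor-free mice and -1.84 ± 2.24 (n = 3) in wild-type mice. It differed from wild type by -1.65 for tumor-free mice (exact permutation p = 0.0667) and by -2.02 for tumor mice (exact permutation p = 0.0952), both at an adjusted p of 0.429 over 9 tests. For tumor-free mice this difference was -0.39 without wild-type replicate 2 (exact permutation p = 0.417) and -2.54 without replicate 1 (exact permutation p = 0.0278, adjusted p = 0.125). Relative to miR-10a-5p the differences of miR-196b-5p were -1.05 and -1.30 (adjusted p = 0.538 for both) for tumor-free and tumor mice. For tumor-free mice this was -0.056 without wild-type replicate 2 (exact permutation p = 1) and -2.38 without replicate 1 (exact permutation p = 0.0278, adjusted p = 0.125). The ratios to the miR-10 pair thus depended on which wild-type mice were used. With all mice, 0 of the 9 ratio tests passed and 0 had an unadjusted p under 0.05.

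**Figure D4:**
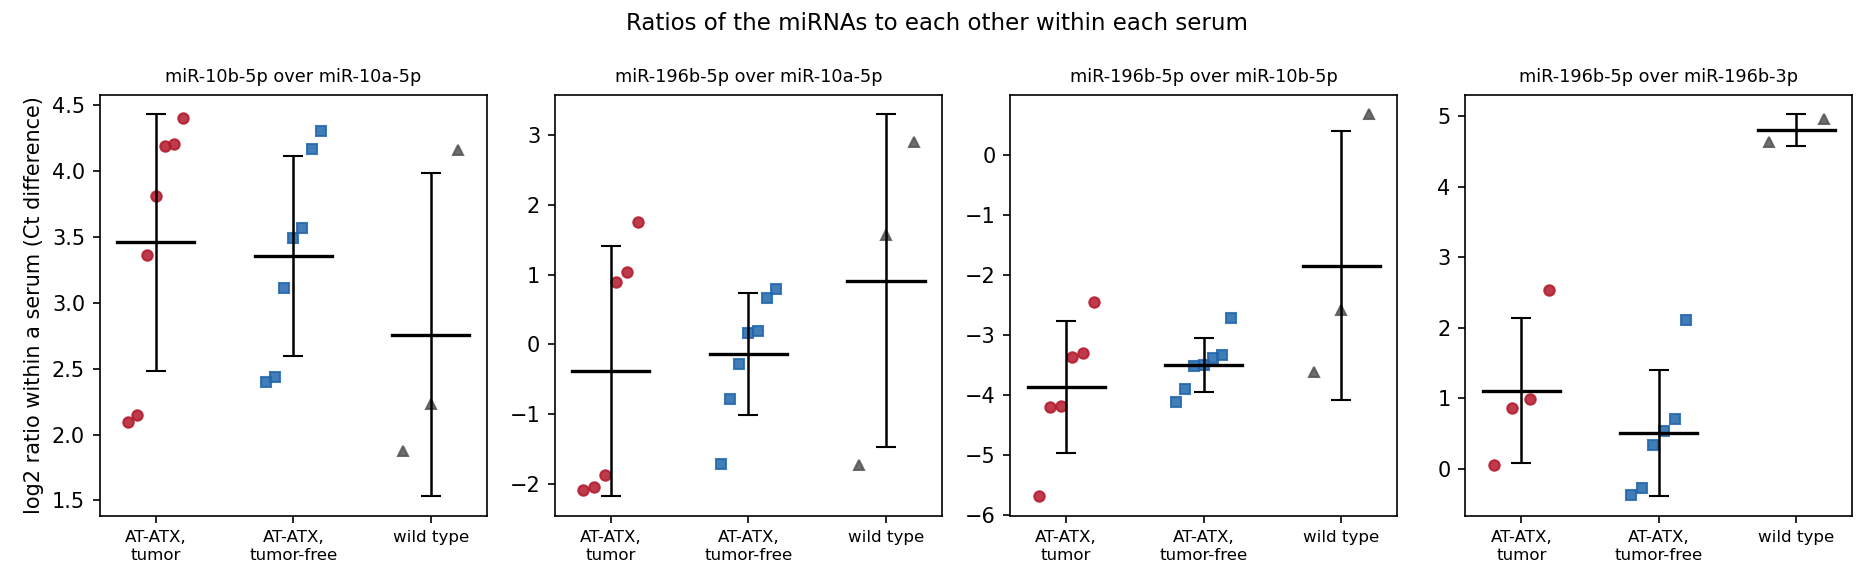
Log2 ratio of 2 miRNAs within each serum (y axis, the Ct difference) by group, with the mean as a line and 1 SD as a bar. The first 3 plots show the members against each other, with overlapping groups, and the last shows miR-196b-5p over its 3p arm, where the 2 wild-type mice with both arms detected lie at 4.64 and 4.96 and the 10 transgenic mice at or below 2.53.

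How the members varied together across mice depended on the scaling. In raw Ct, with group means taken off, miR-10a-5p and miR-10b-5p varied together over the 17 mice (Pearson's r = 0.89 at permutation p = 3e-05, adjusted to 0.00018 over 6 relations; Spearman's rho = 0.89 at permutation p = 4e-05, adjusted to 0.00024). Without the 2 farthest mice r was 0.87, and within tumor and tumor-free mice it was 0.90 and 0.77. In raw Ct miR-196b-5p also varied with miR-10a-5p (r = 0.62 at permutation p = 0.0325, adjusted to 0.065, n = 16). Its Spearman's rho there was 0.66 (permutation p = 0.0169, adjusted to 0.0376). With miR-10b-5p it gave r = 0.63 (permutation p = 0.0245, adjusted to 0.065) and rho = 0.63 (permutation p = 0.0188, adjusted to 0.0376). Scaled to spike-ins, r was 0.88 for the miR-10 pair (permutation test, adjusted p = 0.0006). For miR-196b-5p with miR-10a-5p it was 0.61 on that scale (permutation test, adjusted p = 0.12). Raw Ct also carries the amount of RNA in each serum, which all assays share. Relative to the panel mean r was 0.51 (permutation p = 0.117, adjusted p = 0.14) and rho was 0.36 (permutation p = 0.243, adjusted p = 0.323), with 0.20 without the 2 farthest mice, 0.62 within tumor and -0.19 within tumor-free mice. On that scale miR-196b-5p ran against miR-10a-5p (r = -0.52, permutation p = 0.0943, adjusted p = 0.14, n = 16). Spearman's rho was -0.57 (permutation p = 0.0627, adjusted to 0.162), and r was -0.45 without the 2 farthest mice. Within tumor mice r was -0.81, and within tumor-free mice -0.15. This relation did not pass either. For miR-196b-5p with miR-10b-5p r was -0.32 on that scale (permutation test, adjusted p = 0.381).

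**Figure D5:**
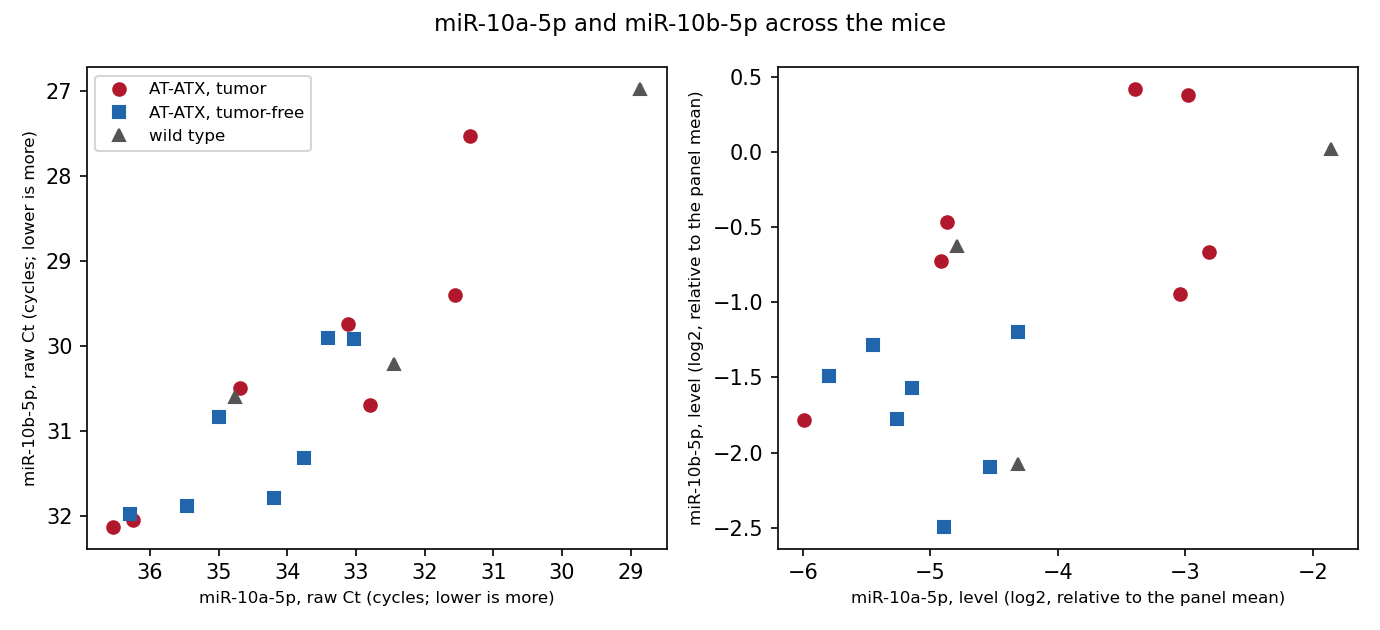
miR-10b-5p (y axis) against miR-10a-5p (x axis) in each mouse, by group, in raw Ct with reversed axes (left) and as levels relative to the panel mean (right). The mice fall along a line on the left (r = 0.89 with group means taken off) and scatter on the right (r = 0.51).

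Red blood cell RNA can enter serum when cells lyse, and the red-cell index, by which miR-451a of red blood cells comes up earlier than miR-23a-3p in cycles, was set beside the members. The index was 3.97 ± 1.97 cycles (SD, n = 7) in tumor mice, 4.38 ± 0.84 (n = 7) in tumor-free mice and 5.61 ± 2.07 (n = 3) in wild-type mice. Tumor mice differed from wild type by 1.204 in miR-23a-3p (limma adjusted p = 0.141) and by -0.429 in miR-451a (adjusted p = 0.754). Tumor-free mice differed from wild type by 0.732 (adjusted p = 0.401) and -0.494 (adjusted p = 0.686) in the same order. In these levels, relative to the panel mean, the index thus differed from wild type more through miR-23a-3p than through miR-451a. In raw Ct it differed more through miR-451a. There miR-23a-3p averaged 23.55 in tumor, 23.66 in tumor-free and 23.37 in wild-type mice, and miR-451a 19.58, 19.28 and 17.77. Which assay carried the difference thus depended on the scaling. The index rests on both assays and does not give red blood cell RNA alone. The level of miR-10b-5p ran against it (r = -0.70, permutation p = 0.0121, adjusted p = 0.0726; Spearman's rho = -0.59 at permutation p = 0.038, adjusted to 0.162; r = -0.45 without the 2 farthest). Within tumor mice r was -0.80, and within tumor-free mice 0.18. For miR-10a-5p r was -0.62 (permutation p = 0.0531, adjusted p = 0.14; Spearman's rho = -0.56 at permutation p = 0.0809, adjusted to 0.162; r = -0.42 without the 2 farthest). For miR-196b-5p r was 0.49 (permutation p = 0.106, adjusted p = 0.14; Spearman's rho = 0.35 at permutation p = 0.269, adjusted to 0.323; r = 0.31 without the 2 farthest; n = 16). None of the relations on this scale passed after adjustment. With the index as a covariate, chosen after the data were seen, miR-196b-5p differed from wild type by -2.18 for tumor-free mice (limma adjusted p = 0.0382) and by -1.52 for tumor mice (adjusted p = 0.0717). miR-10b-5p then differed by 1.03 between tumor and tumor-free mice (adjusted p = 0.0522) and by -0.15 between tumor and wild-type mice.

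Markers of cells that release RNA into blood were set beside the members in the same comparisons, and those that passed did so with tumor mice. Of the 5 red blood cell markers on the panel 0 passed against wild type, and their mean level ran from 6.05 to 9.21 in tumor mice, 6.49 to 8.23 in tumor-free mice and 7.35 to 9.35 in wild-type mice. Of 3 myeloid markers 2 were higher in tumor than in wild-type mice, with mean levels of 3.54 to 5.60 in tumor, 3.57 to 5.52 in tumor-free and 2.27 to 3.61 in wild-type mice. Of 7 liver markers 4 were lower in tumor than in wild-type mice, with mean levels of 2.11 to 3.82, 3.40 to 4.49 and 4.21 to 5.03 in the same order of groups. Of all tested assays 8.28% passed between tumor and wild-type mice (4.14% lower). Between tumor and tumor-free mice, where the miR-10 pair was compared, 1 of the 7 liver markers was lower (limma adjusted p = 0.0105) and the list's median log2 difference was -0.94. Of all tested assays 1.48% passed between these 2 groups. Of 5 platelet markers 1 was higher in tumor than in wild-type mice. That marker is also on the myeloid list and is already counted there, and no other platelet marker passed. Of 6 tested markers of smooth muscle and endothelium 0 passed. Between tumor-free and wild-type mice 0 markers of any list passed, where 0.592% of all tested assays did. The median log2 difference there was -1.17 for red blood cell, 1.28 for myeloid and -0.63 for liver markers. It was 0.16 for platelet markers, 0.64 for smooth muscle and endothelium, and 0.03 over all tested assays. No red blood cell, myeloid, platelet or liver marker on the panel was undetected in any mouse. The part of these cells in the lower level of miR-196b-5p and in the differences of the miR-10 pair was not tested.

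Other miRNAs of the Hox clusters and the sequence relatives of miR-10 did not pass in any comparison. Of 8 further Hox-cluster miRNAs listed, 2 were on the panel, miR-196b-3p and miR-615-3p, of which miR-615-3p is encoded inside Hoxc5 on chromosome 15. The level of miR-615-3p ran from -6.42 through -5.74 to -5.0 in tumor-free mice, against -7.25, -8.78 and -6.60 in wild-type mice. All 7 tumor-free mice lay above all wild-type mice, as was the case for 6.80% of tested assays, with a log2 difference of 1.79 (SE 0.60, limma adjusted p = 0.149). In tumor mice it was detected in 5 of 7 and differed from wild type by 1.86 (SE 0.63, adjusted p = 0.0686). Its Ct values lay between 33.0 and 36.9, so it too was read near the edge of detection. A rat assay of the miR-196 family, rno-miR-196c-5p, was also on the panel and is named after its values were seen. It was detected in 14 of 17 mice at a Ct of 34.3 or later and differed from wild type by 0.70 in tumor-free mice (SE 0.80, adjusted p = 0.609) and by 1.68 in tumor mice (SE 0.77, adjusted p = 0.186). miR-99a-5p, miR-99b-5p and miR-100-5p, which carry the other seed, differed by -0.71 to 0.89 between tumor-free and wild-type mice and by -0.47 to 1.01 between tumor and tumor-free mice (smallest adjusted p = 0.517).

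The assays whose levels ran most like those of the members were sought among 250 others detected in every mouse, as a description. For miR-196b-5p these were miR-30a-5p (r = 0.78), miR-421-3p (0.72) and miR-9-5p (0.72), over 16 mice with group differences left in. For miR-10b-5p they were miR-674-3p (0.75), miR-27b-3p (0.71) and miR-376c-3p (0.69), and for miR-10a-5p let-7a-1-3p (0.77), miR-378a-3p (0.73) and miR-361-5p (0.73), over 17 mice. With group means taken off, r was 0.63, 0.46 and 0.58 for the first set, 0.67, 0.73 and 0.49 for the second and 0.89, 0.68 and 0.68 for the third. All levels share the panel mean and the serum they came from.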

How the data were processed

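The authors deposited 1 table of Ct values per assay and mouse, not normalized per its name; threshold setting, plate calibration and detection limit are not given in the sources used here. Empty cells were taken as not detected. Groups came from the disease status in the labels, and replicates were numbered in accession order. Nothing says that samples are other than 1 mouse each. Assays detected in at least 2 wild-type, 5 tumor-free and 5 tumor mice were tested (338 of 357). One limma fit held all 3 groups (limma 3.58.1 under R 4.3.3, with lmFit and eBayes). Its two-sided p-values were adjusted by Benjamini-Hochberg over 338 assays for each comparison, and the threshold was 0.05. The fit was tested on simulated data. Ratios were tested by enumerating every relabelling of the mice (exact permutation, two-sided, on the mean difference), and relations by 100000 reorderings within groups (Python 3.11.15, scipy 1.17.1). The members and lists were chosen with earlier results of these data known. The miRNAs named were the members, other Hox-cluster miRNAs, relatives of miR-10 and the 3 assays most like each member. Alternatives changed the scaling (median, reference miRNAs, raw Ct, spike-ins, quantile), the missing values, the filter, the detection limit, the variance model, the test, the samples and the block. Of the markers listed, miR-142 arms under other names were not matched.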

Additional observations from a re-analysis of the deposited data

Results flagged for a closer look

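The level of miR-196b-5p in tumor-free replicate 4 was -6.61, far below the other 6 tumor-free mice, which lay between -5.10 and -4.79. Its gap to the nearest mouse took 0.827 of the group's range. The limit applied to such gaps is passed by chance in about 1 in 20 groups, and 14 sets of values were examined. Without this mouse miR-196b-5p differed from wild type by -2.22 in the tumor-free mice (limma adjusted p = 0.0482).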

How the results depend on the processing

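In the comparison of tumor with tumor-free mice 5 assays passed, against 0 with reference miRNAs (44 at an unadjusted p under 0.05), 0 with raw Ct (17), 0 with spike-ins (14), 8 with only the groups compared, 13 with the red-cell index as a covariate, 0 by exact permutation (57) and 2 to 10 without 1 mouse. Between tumor-free and wild-type mice 2 passed, against 1 with median scaling, 4 with reference miRNAs, 0 with raw Ct (63), 0 with spike-ins (73), 4 with undetected values at Ct 37, 4 with no filter, 1 with a variance trend, 15 with only the groups compared, 5 with the covariate, 0 by exact permutation (85) and 1 to 9 without 1 mouse. Between tumor and wild-type mice 28 passed, against 15 with raw Ct, 8 with spike-ins, 1 with only the groups compared, 0 by exact permutation (45) and 10 to 39 without 1 mouse. The difference of miR-196b-5p between tumor-free and wild-type mice lost its call with median scaling (-2.47, adjusted p = 0.0551), raw Ct (-3.48, 0.0961) and spike-ins (-3.60, 0.0682). The call was also lost with Ct 37 (-2.46, 0.0523), no filter (-2.46, 0.0578), a variance trend (-2.46, 0.0598) and exact permutation (-2.46, 0.0828). This difference ran from -2.88 to -1.79 without 1 mouse. In tumor mice it lost its call with median scaling (-1.75, 0.0645), spike-ins (-3.06, 0.0510), a variance trend (-1.82, 0.0550), only the groups compared (-1.82, 0.170), the covariate (-1.52, 0.0717) and exact permutation (-1.82, 0.217), and ran from -2.25 to -1.15 without 1 mouse. Between tumor and wild-type mice miR-10b-5p reversed with raw Ct (-1.03), spike-ins (-0.92) and the covariate (-0.15) and ran from -0.24 to 0.81 without 1 mouse, and miR-10a-5p ran from -0.92 to 0.55. The medians over all tested assays in that comparison were -1.22 with raw Ct and -1.08 with spike-ins. The difference of miR-10b-5p between tumor and tumor-free mice ran from 0.80 to 1.28 over 13 alternative settings. Without 1 mouse it ran from 1.00 to 1.37, and it passed in none of these fits. Between tumor and tumor-free mice the ratio of miR-10b-5p to miR-10a-5p ran from -0.053 to 0.33 without 1 mouse, and that of miR-196b-5p to miR-10a-5p from -0.68 to 0.090. The cause of these shifts was not tested. With a detection limit of Ct 35, miR-10a-5p, miR-196b-5p and the arm ratio gave no value. The transgenic labels carry a number whose meaning is not stated. With it as a random replicate block miR-196b-5p differed from wild type by -2.47 (adjusted p = 0.0381) and -1.81 (0.0483) for tumor-free and tumor mice, and no member's call changed. The few wild-type mice and late cycles limit precision.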
